A study of Homo sapiens with 6 samples.

Results

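The 2 ribosomal RNAs of the mitochondrial genome and the nuclear genes named after the larger of them were followed in HT-1080, a long-established cell line from a human fibrosarcoma. The genes were the rows of the deposited table whose symbol is RNR1 or RNR2 or begins with MTRNR2L, which gave 6 of 22925 rows. RNR1 is the 12S rRNA of the small mitochondrial ribosomal subunit, RNR2 is the 16S rRNA of the large one, and the other 4 rows are nuclear MTRNR2L genes. The tested cells received 20 μM PhenDC3, a ligand of G quadruplexes, which are folds of guanine-rich DNA and RNA, in 1% DMSO for 48 h. The control cells received 1% DMSO alone for 48 h, so both groups carried the solvent. Each group had 3 libraries of poly(A) RNA, with 7371056 to 9386691 reads in PhenDC3 libraries and 12574952 to 14292987 reads in DMSO libraries. Whether each library had its own culture is not in the labels, and p-values here therefore refer to library spread alone, part of which may be technical. The libraries come from bulk RNA of a single line, in which fewer or more cells with an RNA and less or more of it per cell cannot be told apart.

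Mitochondrial rRNAs are copied from the heavy strand of the mitochondrial genome as part of long transcripts, and the tRNAs that lie between the genes are cut out to free them. The order at the start of that strand is the tRNA for phenylalanine (MT-TF), RNR1, the tRNA for valine (MT-TV), RNR2, the tRNA for leucine (MT-TL1) and then ND1, a subunit gene of respiratory complex I. Mitochondrial rRNAs carry only short adenine tails, so in poly(A) libraries the amount of rRNA in the cells and the share of it that was captured cannot be told apart. The nuclear genome holds many inserted copies of mitochondrial DNA, and the MTRNR2L genes are copies of RNR2. Many of them keep a short open reading frame like that of humanin, a peptide first described from within the 16S rRNA.

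1 name needs care. The row with the identifier ENSG00000269028 carries the symbol MTRNR2L2 in the deposited table, and GENCODE release 29 calls the same identifier MTRNR2L12. It is called MTRNR2L12 here. The other members are MTRNR2L1 (ENSG00000256618, chromosome 17), MTRNR2L4 (ENSG00000232196, chromosome 16) and MTRNR2L8 (ENSG00000255823, chromosome 11), and MTRNR2L12 lies on chromosome 3. A further 2 rows have no symbol in the table and bear MTRNR2L names in GENCODE: MTRNR2L2 (ENSG00000271043, chromosome 5) and MTRNR2L9 (ENSG00000255633, chromosome 6). They are given beside the 6 members because they are also copies of RNR2. GENCODE lists both as processed pseudogenes with no coding part.

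The open reading frame shows how close the copies are to RNR2, and so how hard their reads are to assign. The stretch below runs from the start codon over 75 bases, which are bases 963 to 1037 of the 16S rRNA. The sequences are from GENCODE release 29 transcripts, read 5′ to 3′, with capitals at the bases that differ from RNR2.
RNR2: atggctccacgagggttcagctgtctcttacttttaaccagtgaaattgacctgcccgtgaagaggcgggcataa
MTRNR2L12: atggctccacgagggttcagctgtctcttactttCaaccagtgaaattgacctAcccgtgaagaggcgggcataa
MTRNR2L8: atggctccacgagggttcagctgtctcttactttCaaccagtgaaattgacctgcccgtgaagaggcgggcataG
MTRNR2L1: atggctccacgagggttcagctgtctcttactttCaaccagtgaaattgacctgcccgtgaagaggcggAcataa
MTRNR2L4: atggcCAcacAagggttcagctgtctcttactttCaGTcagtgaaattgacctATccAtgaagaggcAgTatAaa
MTRNR2L2: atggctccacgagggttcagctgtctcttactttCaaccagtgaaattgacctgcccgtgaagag
MTRNR2L9: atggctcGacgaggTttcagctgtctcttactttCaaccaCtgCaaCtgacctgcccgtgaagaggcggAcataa

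All 6 copies in the table carried the substitution T35C, counted from 1 at the first base of the start codon with the RNR2 base first. MTRNR2L12 differed from RNR2 only by T35C and G54A in this stretch, MTRNR2L8 by T35C and A75G, and MTRNR2L1 by T35C and G70A. MTRNR2L4 had 11 substitutions and 1 added base, which are its 12 capitals, and also lacked 1 base of RNR2, which the printed letters cannot show. Its printed stretch ends at base 913 of the transcript, and its coding part in GENCODE runs past that, from base 839 to base 925. MTRNR2L9 had 7 substitutions. The GENCODE model of MTRNR2L2 ends its match to RNR2 after 65 bases, over which T35C was the only difference.

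Over the whole aligned length, MTRNR2L12 was 95.1% identical to the 16S rRNA and MTRNR2L8 was 93.1% identical. MTRNR2L1 was 88.6% identical, and MTRNR2L4 was 78.8% identical over the 651 columns that aligned. Of all 50-base windows of a copy, 15.3% in MTRNR2L12 and 8.93% in MTRNR2L8 occurred letter for letter in the 16S rRNA. That share was 0.731% in MTRNR2L1 and 0 in MTRNR2L4. A read from such a window could come from either place, and nothing in the sources used here says how the authors' counting treated it. Levels of the copies are therefore uncertain.

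Both mitochondrial rRNAs were far more abundant after PhenDC3. Values are normalized counts, which are reads divided by the authors' size factor for each library. RNR1 had 367743, 367264 and 362415 normalized counts in PhenDC3 libraries, against 5121, 5772 and 5663 in DMSO libraries. Every PhenDC3 library lay far above every DMSO library. The mean was 365807 ± 2948 after PhenDC3 and 5519 ± 349 after DMSO (SD, n = 3 each), a 66.3-fold difference. On the log2(value + 1) scale RNR1 rose by 6.05 (SE 0.06, limma adjusted p = 8.11e-24).

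RNR2 had 542539, 538892 and 538735 normalized counts in PhenDC3 libraries, against 19936, 20781 and 22117 in DMSO libraries. These groups were also wide apart, and RNR2 was the more abundant of the rRNAs in all 6 libraries. The mean was 540055 ± 2152 after PhenDC3 and 20945 ± 1100 after DMSO (SD, n = 3 each), a 25.8-fold difference. Its log2 change was 4.69 (SE 0.06, limma adjusted p = 4.77e-22). The spread within a group was small for both, with a coefficient of variation of 0.806% for RNR1 and 0.399% for RNR2 after PhenDC3 and of 6.32% and 5.25% after DMSO.

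The rRNA copies in the nuclear genome moved by very different amounts. MTRNR2L12 had 5429, 5861 and 6034 normalized counts in PhenDC3 libraries, against 205, 173 and 199 in DMSO libraries. The groups did not overlap, and the mean was 5775 ± 312 after PhenDC3 and 192 ± 16.8 after DMSO (SD, n = 3 each). Its log2 change was 4.90 (SE 0.08, limma adjusted p = 7.48e-21), close to that of RNR2. MTRNR2L8 had 264, 290 and 312 normalized counts in PhenDC3 libraries, against 23.3, 23.2 and 18.6 in DMSO libraries. It was likewise higher in all PhenDC3 libraries, with a log2 change of 3.68 (SE 0.14, limma adjusted p = 3.35e-14).

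MTRNR2L1 was almost unread in DMSO cells. It had 8, 5 and 5 reads in PhenDC3 libraries, against 0, 1 and 0 reads in DMSO libraries. Every PhenDC3 library was above every DMSO library, though on few reads. Pooled over libraries and scaled, PhenDC3 was 31.8-fold higher, with an exact 95% interval of 5.02 to 1326 that covers counting error only. With no minimum level MTRNR2L1 passed in limma, with a log2 change of 2.85 (adjusted p = 5.54e-05), where 45.6% of genes were called. It passed in DESeq2 with 4.88 (adjusted p = 0.00187), where 41.8% of genes were called. In the authors' deposited table it also passed, with a log2 fold change of 4.88, where 39.0% of genes with an adjusted p were called.

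MTRNR2L4, the member least like the 16S rRNA, did not show such a difference. It had 5, 3 and 4 reads in PhenDC3 libraries, against 3, 6 and 5 reads in DMSO libraries. After scaling, the groups overlapped, at 4.47 to 5.92 normalized counts after PhenDC3 and 2.33 to 4.64 after DMSO. The pooled ratio was 1.52, with an exact 95% counting interval of 0.640 to 3.53. Its log2 change of 0.50 did not pass in limma with no minimum (adjusted p = 0.375), nor did 0.59 in DESeq2 (adjusted p = 0.634).

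**Figure D1:**
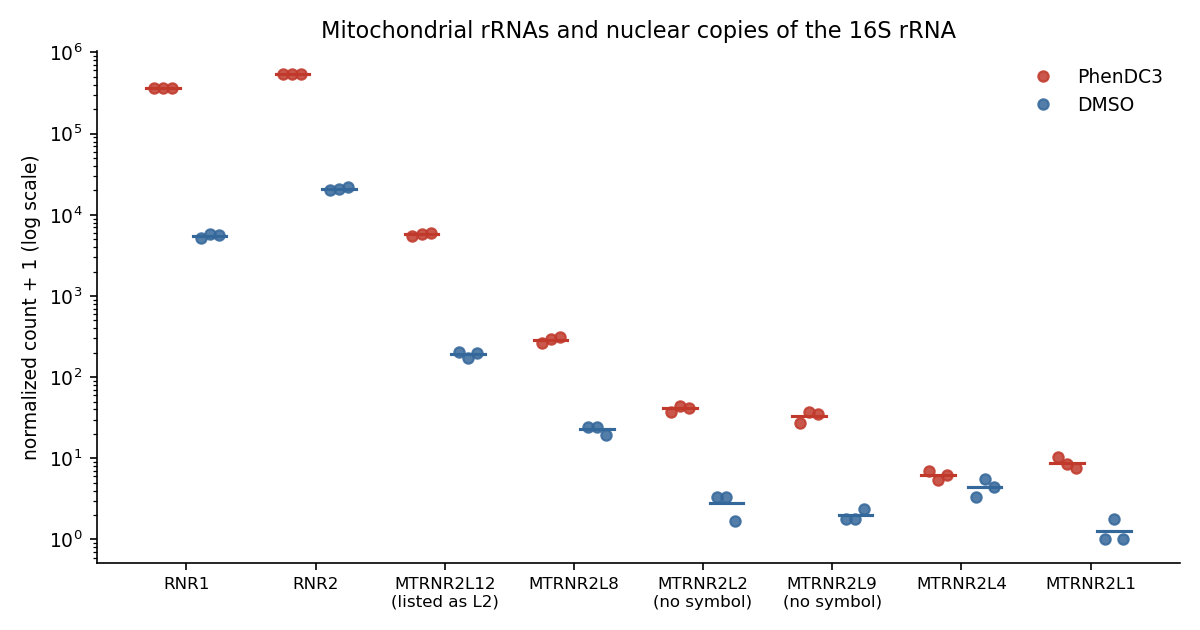
Normalized counts plus 1 of the 6 members and of the 2 further MTRNR2L rows on a log scale, with PhenDC3 left of DMSO for each gene, a point for each library and a line at the group mean. RNR1 and RNR2 lie between 362415 and 542539 after PhenDC3 and between 5121 and 22117 after DMSO, and MTRNR2L4 is the row whose groups overlap.

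Of the 6 members, 4 passed the minimum mean of 5 normalized counts and were tested, and MTRNR2L1 and MTRNR2L4 were below it. All 4 tested members were called higher at an adjusted p under 0.05. Of the 16482 genes tested, 59.6% were called in either direction and 29.2% were called higher, with 30.4% called lower. By log2 change RNR1 ranked 3 among the tested genes, MTRNR2L12 ranked 23 and RNR2 ranked 27. Of all tested genes, 31.5% had every PhenDC3 library above every DMSO library.

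The further copies without a symbol in the table were at low levels and higher after PhenDC3. MTRNR2L2 had 36.7, 43.2 and 40.7 normalized counts in PhenDC3 libraries, against 2.33, 2.32 and 0.69 in DMSO libraries. Its log2 change was 3.95 (SE 0.36, limma adjusted p = 9.49e-09). MTRNR2L9 had 26.0, 35.7 and 34.1 normalized counts in PhenDC3 libraries, against 0.778, 0.773 and 1.38 in DMSO libraries, with a log2 change of 4.06 (SE 0.38, limma adjusted p = 1.46e-08). Both sets of libraries were fully separate. These rows rest on 7 and 4 reads in DMSO libraries, so the pseudocount of 1 lowers their log2 changes. With DMSO means of 1.78 and 0.977, both rows reached the minimum mean of 5 only through their PhenDC3 values. They were thus tested because they were high there, and their adjusted p-values are not separate support for a rise. With a pseudocount of 10 the limma log2 changes were 2.09 for MTRNR2L2 and 1.93 for MTRNR2L9, and DESeq2 on recovered reads gave 4.52 and 5.01, all past the threshold.

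RNR1 rose more than RNR2. As a percentage of the reads on RNR2, RNR1 stood at 67.8%, 68.2% and 67.3% in PhenDC3 libraries, against 25.7%, 27.8% and 25.6% in DMSO libraries. No DMSO library came near a PhenDC3 library. The log2 change of RNR1 relative to RNR2 was 1.36 (SE 0.06, 95% interval 1.23 to 1.49, limma adjusted p = 4.64e-13), or 2.57-fold. The 2-sided exact permutation test over libraries gave p = 0.1, the smallest that 3 against 3 allows. In the same fit 99.7% of genes differed from RNR2, 99.6% with a lower change and 0.0849% (14 genes) with a higher one. RNR1 and MTRNR2L12 were among those 14.

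Of the nuclear copies, MTRNR2L12 kept nearly the same ratio to RNR2. Its reads were 1.00%, 1.09% and 1.12% of those on RNR2 in PhenDC3 libraries, against 1.03%, 0.833% and 0.901% in DMSO libraries. These groups overlapped, since DMSO replicate 1 was above PhenDC3 replicate 1. The relative log2 change was 0.21 (SE 0.08, 95% interval 0.03 to 0.39), a 1.16-fold difference with an interval of 1.02 to 1.31. It passed in limma (adjusted p = 0.0235) and in edgeR (adjusted p = 0.0217, with 99.5% of genes called), but not in DESeq2 (adjusted p = 0.0957) or in the exact permutation test (p = 0.2). The call was also lost in limma without PhenDC3 replicate 2 (0.20, adjusted p = 0.0768), without PhenDC3 replicate 3 (0.18, adjusted p = 0.117) and without DMSO replicate 2 (0.14, adjusted p = 0.137). A rise of MTRNR2L12 beyond that of RNR2 is therefore not settled by these libraries.

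MTRNR2L8 rose less than RNR2. Its reads were 0.0486%, 0.0539% and 0.0580% of those on RNR2 in PhenDC3 libraries, against 0.117%, 0.112% and 0.0842% in DMSO libraries. All PhenDC3 values were below all DMSO values. The relative log2 change was -1.01 (SE 0.15, 95% interval -1.34 to -0.69, limma adjusted p = 7.75e-06), and the exact permutation p was 0.1, the smallest possible. By this fit, with its pseudocount of 1, the ratio of MTRNR2L8 to RNR2 was 0.496 times that in DMSO cells. By the mean read percentages it was 0.513 times, and by pooled reads 0.518 times (exact 95% counting interval 0.414 to 0.655).

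Counting error was wide for the other copies. Relative to RNR2, the pooled ratio of MTRNR2L1 was 1.24 with an exact 95% counting interval of 0.195 to 51.5, and the fitted sign differed between limma with no minimum (-1.84, adjusted p = 0.00154, with 99.8% of genes called) and DESeq2 (0.18, adjusted p = 0.938). MTRNR2L4 lay far below RNR2, with a pooled ratio of 0.0589 (0.0249 to 0.137) and a DESeq2 log2 difference of -4.09 (adjusted p = 1.74e-05), where 92.0% of genes were called in that fit. For MTRNR2L2 the pooled ratio was 0.893 (0.416 to 2.28) and the limma log2 difference was -0.74 (95% interval -1.51 to 0.04, adjusted p = 0.0616). For MTRNR2L9 the pooled ratio was 1.24 (0.463 to 4.66) and the limma log2 difference was -0.63 (95% interval -1.41 to 0.15, adjusted p = 0.106). The last 2 copies were thus not told apart from RNR2 at this depth, where the pooled counting intervals reach beyond a 2-fold difference either way and the limma intervals, which the pseudocount lowers, do so only downward.

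**Figure D2:**
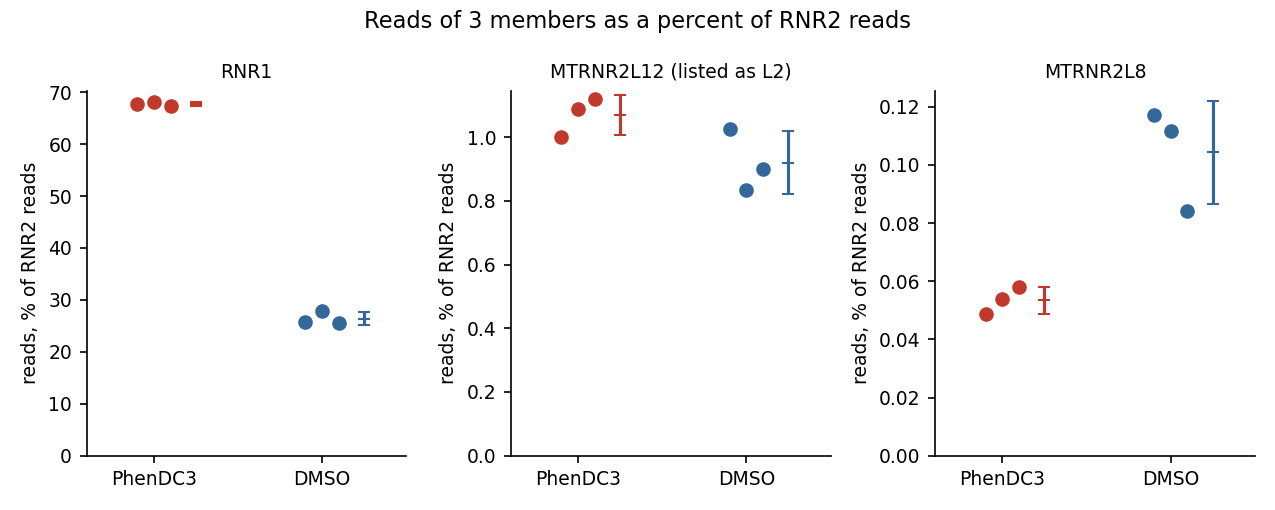
Reads on RNR1, MTRNR2L12 and MTRNR2L8 as a percentage of the reads on RNR2 in the same library, on linear axes from 0, with PhenDC3 left of DMSO, points for libraries and bars for the mean ± SD. RNR1 is at 67.3% to 68.2% after PhenDC3 and 25.6% to 27.8% after DMSO, MTRNR2L12 overlaps between the groups, and MTRNR2L8 is lower in all PhenDC3 libraries.

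The rRNAs came to take a large part of the libraries. Together RNR1 and RNR2 held 8.19%, 8.26% and 8.20% of the reads in PhenDC3 libraries, against 0.256%, 0.270% and 0.282% in DMSO libraries. The mean share was 3.32% ± 0.026 for RNR1 and 4.90% ± 0.0137 for RNR2 after PhenDC3, and 0.0561% ± 0.0033 for RNR1 and 0.213% ± 0.0105 for RNR2 after DMSO (SD, n = 3 each). The remaining mitochondrial rows held 7.21% ± 0.0412 of reads after PhenDC3 and 3.60% ± 0.135 after DMSO. Within the mitochondrial reads the rRNA share was 53.3% ± 0.184 after PhenDC3 and 6.96% ± 0.396 after DMSO. Each of these comparisons gave an exact permutation p of 0.1, the smallest possible. RNR2 was the most read row and RNR1 the next in every PhenDC3 library, whereas in DMSO libraries RNR2 ranked between 24 and 26 and RNR1 between 178 and 211.

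Per kilobase of gene, RNR1 was above RNR2 after PhenDC3 and below it after DMSO. RNR1 averaged 383446 normalized counts per kilobase after PhenDC3 and 5785 after DMSO, and RNR2 averaged 346411 after PhenDC3 and 13435 after DMSO. The ratio of RNR1 to RNR2 per length was 1.11 ± 0.00722 after PhenDC3 and 0.431 ± 0.0201 after DMSO (SD, n = 3 each). Among the 15 rRNA and mRNA rows of the mitochondrial genome, RNR1 was the highest per length in all PhenDC3 libraries and the lowest in all DMSO libraries. RNR2 came next to RNR1 in all PhenDC3 libraries and ranked 13 or 14 in DMSO libraries, where it and ND6 changed places between libraries. The highest mRNA per length after PhenDC3 was cytochrome b (CYTB), at 105456, well under both rRNAs.

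**Figure D3:**
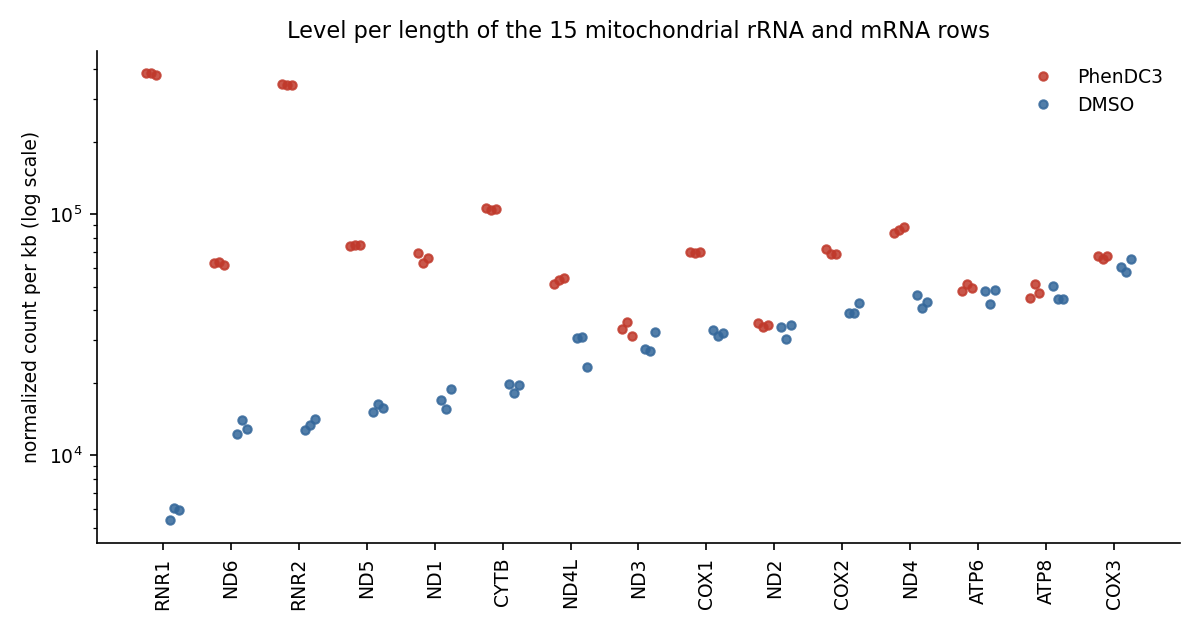
Normalized counts per kilobase of the 15 rRNA and mRNA rows of the mitochondrial genome in each library, on a log scale, with PhenDC3 left of DMSO and the rows ordered by their DMSO mean. RNR1 is the highest row after PhenDC3, at a mean of 383446, and the lowest after DMSO, at a mean of 5785.

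The tRNA genes on either side of RNR1 also rose. MT-TF, ahead of RNR1, had 444, 408 and 425 normalized counts in PhenDC3 libraries, against 18.7, 30.2 and 22.8 in DMSO libraries, a log2 change of 4.13 (SE 0.15, limma adjusted p = 1.08e-14). MT-TV, which sits between the rRNA genes, had 865, 518 and 667 normalized counts in PhenDC3 libraries, against 20.2, 11.6 and 18.6 in DMSO libraries, a log2 change of 5.27 (SE 0.19, limma adjusted p = 6.73e-15). Both were separate between the groups in every library. MT-TV rose 0.58 more than RNR2 on the log2 scale (limma adjusted p = 0.0112), and MT-TF rose less, by a log2 difference of -0.56 (limma adjusted p = 0.00214).

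The genes just past RNR2 rose less. MT-TL1 had 296, 250 and 256 normalized counts in PhenDC3 libraries, against 45.1, 55.7 and 41.4 in DMSO libraries. Its log2 change of 2.48 (SE 0.13) was lower than that of RNR2, by a limma difference of -2.21 with an adjusted p of 9.74e-11. ND1 averaged 63043 normalized counts after PhenDC3 and 16376 after DMSO, with a log2 change of 1.95 (SE 0.07) that was also lower than that of RNR2, by a difference of -2.74. A read counted at a tRNA gene can belong to a longer transcript that also covers a neighbour.

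Of the 35 mitochondrial rows, all were tested, 31 were called higher and 0 were called lower, against 29.2% of all tested genes called higher and 30.4% lower. By log2 change RNR1 was at the top of them and RNR2 ranked 3, behind MT-TV. All 20 tRNA rows were called higher, with log2 changes of 1.75 to 5.27 and a median of 3.13, so large changes were not limited to the neighbours of the rRNAs. MT-TK and MT-TD, counted in both totals, had DMSO means of 0.517 and 3.28. They reached the minimum mean of 5 only through their PhenDC3 values, so their calls are not separate support. MT-TE, the tRNA for glutamate, lies between ND6 and CYTB and had a log2 change of 4.54 (SE 0.14, limma adjusted p = 1.05e-15). Of the 13 mitochondrial mRNAs, 9 were called higher and 0 lower, with a median log2 change of 0.91, where the median of all tested genes was -0.02. All mitochondrial genes share 1 genome and their values are not independent of each other.

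**Figure D4:**
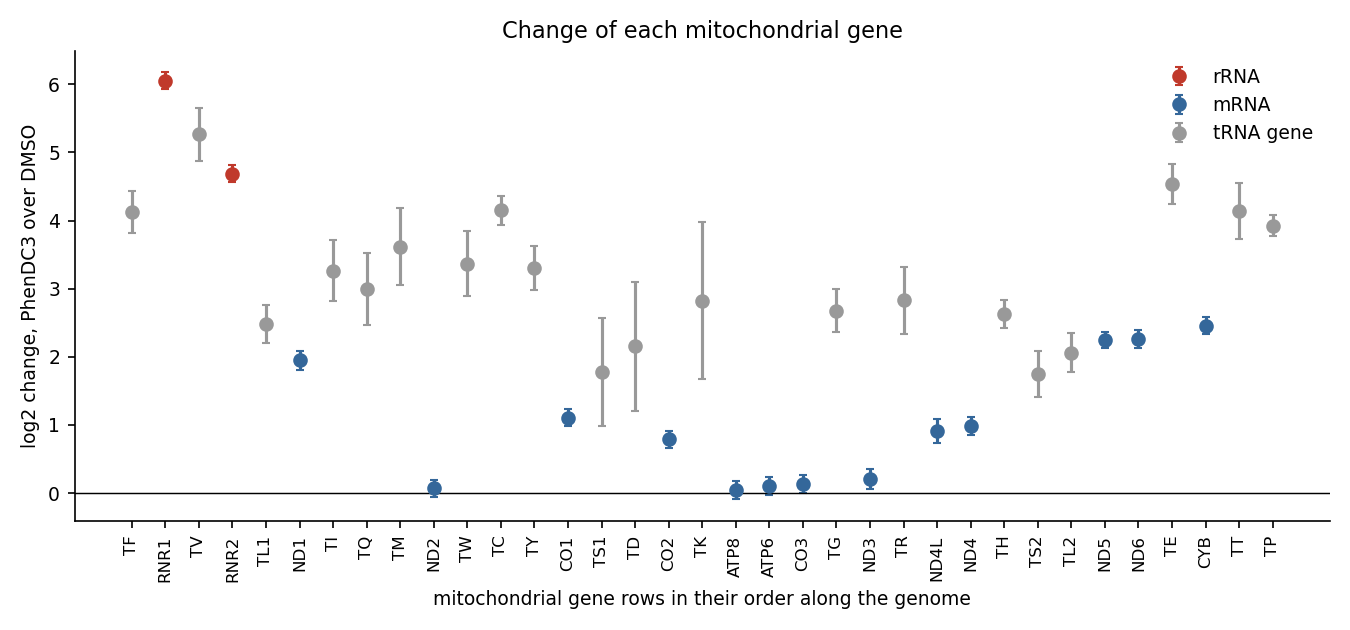
Log2 change of PhenDC3 over DMSO from limma, with 95% intervals, for the mitochondrial rows in their order on the genome. RNR1 at 6.05, MT-TV at 5.27 and RNR2 at 4.69 are the highest rows, ahead of MT-TE at 4.54, and the tRNA rows mostly lie above the mRNA rows.

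Nuclear copies of mitochondrial mRNAs gave a second set to hold against the MTRNR2L rows. The table has 35 of them, of which 12 were tested, 9 were called higher and 0 were called lower. Of all tested genes, 29.2% were called higher and 30.4% lower. The 9 include MTCO1P28, MTND1P23 and MTND1P8, whose DMSO means were 2.76, 1.55 and 1.26. These copies reached the minimum mean of 5 only through their PhenDC3 values, so their calls are not separate support for a rise. The table holds 0 rows that GENCODE names as copies of RNR1. MTCO1P12, a copy of the gene of cytochrome oxidase subunit I, averaged 7779 ± 349 normalized counts after PhenDC3 and 3478 ± 55.1 after DMSO, and rose by 1.16 on the log2 scale where its parent rose by 1.11. It stood at 7.25% of its parent after PhenDC3 and at 6.99% after DMSO, and the difference in log2 change of 0.05 had an exact permutation p of 0.4. MTND6P4, a copy of ND6, averaged 449 ± 17.03 after PhenDC3 and 86.5 ± 7.64 after DMSO, with a log2 change of 2.37 against 2.26 for its parent (exact permutation p = 0.4 for the difference).

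The other well-read copies also had log2 changes near those of their parents. MTND4P12 had 0.87 against 0.99 for ND4 (exact permutation p = 0.1 for the difference, the smallest possible). MTCO3P12 had 0.11 against 0.13 for COX3, and neither passed the test (limma adjusted p = 0.135 for the copy and 0.0716 for COX3). The low copies MTATP6P1 and MTND2P28 averaged 26.5 and 19.7 normalized counts after PhenDC3 and 16 and 12.3 after DMSO. Their log2 changes were 0.70 (limma adjusted p = 0.0174) and 0.59 (limma adjusted p = 0.108), while their parents ATP6 and ND2 had 0.11 and 0.07 and did not pass. What part misassigned reads from the mitochondrial genome have in the values of any copy was not tested.

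**Figure D5:**
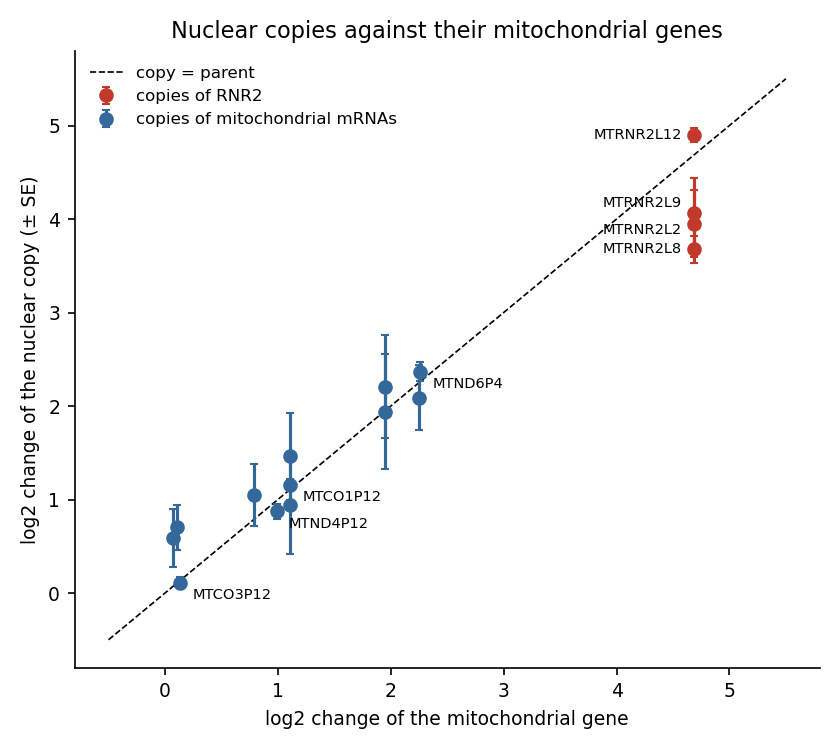
Log2 change of each tested nuclear copy (y axis) against that of its mitochondrial parent (x axis), PhenDC3 over DMSO from limma, with bars for the SE and a dashed line of equal change. MTRNR2L12, at 4.90 against 4.69 for RNR2, and MTCO1P12, at 1.16 against 1.11, lie near the line, and MTRNR2L8, at 3.68 against 4.69, lies under it.

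As PhenDC3 binds G quadruplexes, the rRNA sequences were searched for 4 runs of GGG with 1 to 7 bases between runs. The motif was not found in RNR1, in RNR2 or in the 4 MTRNR2L members, in the RNA or on the opposite strand. For comparison, GENCODE transcripts at least as long as the gene were cut to its length from their 5′ end. The shares below therefore leave out the 3′ part of longer transcripts. Cut to the length of RNR1, 9.54% hold the motif in the RNA and 12.95% on the opposite strand, and cut to the length of RNR2 the shares are 13.3% and 18.5%. With runs of GG and the same gaps, RNR1 had 0 matches in the RNA and 3 on the opposite strand, and RNR2 had 0 and 2. MTRNR2L4 had 3 in the RNA and 0 on the opposite strand. MTRNR2L12, MTRNR2L8 and MTRNR2L1 had 0 in the RNA and 2, 3 and 2 on the opposite strand. Such matches are common, as 85.7% of transcripts cut to the length of RNR1 hold one in the RNA and 83.7% on the opposite strand. At the length of RNR2 these shares are 92.0% and 90.3%. RNR1 is 19.0% G and 26.5% C, and RNR2 is 17.3% G and 25.5% C.

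The nuclear-encoded factors that make and handle mitochondrial rRNA were taken from 3 lists written from general knowledge. Of 54 factors tested, 10 were called higher and 24 lower, with a median log2 change of -0.15. When scaled to all reads in place of the size factors, 5 were higher and 32 lower, with a median of -0.32. Of the 16482 genes tested, 4806 (29.2%) were called higher and 5012 (30.4%) lower. Over all genes scaled to all reads, 3555 were higher and 6615 lower, and the median of all genes was -0.18 in place of -0.02.

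Of the 13 genes for transcription and termination on the mitochondrial genome, 4 were higher and 5 lower. Over all tested genes, 29.2% were called higher and 30.4% lower, with a median of -0.02. The 13 had a median log2 change of 0.03, which turned to -0.01 with TMM scaling and to -0.14 when scaled to all reads. When scaled to all reads, 2 of the 13 were higher and 6 lower, where all genes split into 3555 higher and 6615 lower. POLRMT, the mitochondrial RNA polymerase, had a log2 change of 0.11 and TFAM, which packs and activates the mitochondrial genome, had -0.13, and neither passed (limma adjusted p = 0.298 and 0.0938). TWNK, the mitochondrial DNA helicase, averaged 1056 ± 77.8 normalized counts after PhenDC3 and 624 ± 11.03 after DMSO, a log2 change of 0.76 (limma adjusted p = 2.38e-08). MTERF2, of the termination factor family, averaged 114 after PhenDC3 and 76.4 after DMSO, a log2 change of 0.56 (limma adjusted p = 0.00126).

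Of 19 genes tested for cleavage, polyadenylation and decay, 3 were higher and 9 lower, with a median log2 change of -0.16. Over all tested genes, 29.2% were called higher and 30.4% lower. When scaled to all reads, 1 of the 19 was higher and 12 lower, where all genes split into 3555 higher and 6615 lower. SLIRP, a partner of LRPPRC in keeping mitochondrial mRNAs stable, fell to 367 normalized counts after PhenDC3, against 680 after DMSO, a log2 change of -0.88. FASTKD1 had a log2 change of -0.71 and FASTKD5, which acts on mitochondrial transcript ends that no tRNA marks, had 0.39. PRORP, the nuclease of mitochondrial RNase P, was barely read, at 4.44 normalized counts after PhenDC3 and 11.1 after DMSO. Its log2 change of -1.15 had a limma adjusted p of 0.0213. PRORP reached the minimum mean of 5 only through its DMSO values. Its call, counted among the lower factors, is thus not separate support for a fall.

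Of 23 genes tested for rRNA modification and mitoribosome assembly, 3 were higher and 11 lower, with a median log2 change of -0.18. Over all tested genes, 29.2% were called higher and 30.4% lower. When scaled to all reads, 2 of the 23 were higher and 15 lower, where all genes split into 3555 higher and 6615 lower. TFB1M, which methylates adenines near the end of the 12S rRNA, fell to 72.3 ± 4.47 normalized counts after PhenDC3, against 216 ± 6.71 after DMSO (SD, n = 3 each). Its log2 change of -1.57 (SE 0.12, limma adjusted p = 4.41e-10) was the lowest of the called factors. MPV17L2, needed for assembly of the mitochondrial ribosome, had a log2 change of -0.94. MTG2, a GTPase of the large subunit, and NSUN4, which methylates the 12S rRNA, had log2 changes of 0.52 and 0.37. All 10 factors named from the lists as called kept their direction and passed under each of the 3 other scalings. The limit given for PRORP holds there too.

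The genes outside the mitochondrial genome whose values over the 6 libraries lay closest to each tested member were taken by Euclidean distance of log2(value + 1), each gene centred on its DMSO mean. Nuclear copies of mitochondrial genes were left out, and the other 9801 tested genes with a mean of 100 or more were the candidates. For RNR1 these were RPL3L at a distance of 0.358, ARL14EPL at 0.735, MCPH1-AS1 at 0.801, ARC at 1.33 and MRNIP at 1.57. For RNR2 the closest were HMOX1, the heme-degrading enzyme heme oxygenase, at 0.334, a row with no name, MRNIP at 0.806, ARC at 1.09 and CCT6P3 at 1.38. HMOX1 was also the closest to MTRNR2L12, at 0.361, followed by MRNIP at 0.472. For MTRNR2L8 they were NMRAL2P at 0.217, EID3 at 0.364, TM4SF19 at 0.378, SQSTM1 at 0.400 and AC003092.1 at 0.412. Levels of MRNIP, which overlaps SQSTM1 on the opposite strand, and of the antisense gene MCPH1-AS1 are uncertain because the strand setting of the counting is not stated in those sources either. With 2 groups, such distances depend largely on the size of the group difference. Of the genes in these lists, only MRNIP, HMOX1 and SQSTM1 averaged 100 or more after DMSO. The others met the minimum mean of 100 only through their PhenDC3 values. RPL3L, ARL14EPL and MCPH1-AS1 averaged 2.50, 3.53 and 2.21 normalized counts after DMSO.

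RN7SK, a small nuclear RNA without a long adenine tail, averaged 8.51 ± 2.33 normalized counts after PhenDC3 and 15.5 ± 2.79 after DMSO (SD, n = 3 each), a log2 change of -0.81 (limma adjusted p = 0.0365). RMRP and TERC, also without a long tail, were below the minimum mean and were not tested. RMRP averaged 0.832 after PhenDC3 and 0.979 after DMSO, and TERC averaged 0 and 1.21. The table also has 19 rows of nuclear 5S and 5.8S rRNA pseudogenes, all at means of 19.8 or less after PhenDC3 and 12.5 or less after DMSO. Of these, 4 were tested, 1 was called higher and 0 lower, where 29.2% of all tested genes were called higher and 30.4% lower. The called row, RNA5SP284, averaged 10.5 after PhenDC3 and 3.91 after DMSO. It reached the minimum mean of 5 only through its PhenDC3 values, so its call is not separate support for a rise. The part of RNA selection in the rRNA values was not tested.

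Markers of the line's mesenchymal type were present, and all 8 listed genes had a row. Their summed level was 34791 to 35818 normalized counts in PhenDC3 libraries and 55394 to 60763 in DMSO libraries. Within the sum, VIM, FN1, CD44 and LGALS1 were called lower, with log2 changes of -0.88, -0.68, -0.41 and -1.07. COL1A1 and COL6A1 were called higher, at 0.62 and 0.38, and S100A4 was not called, at 0.29. COL1A2 averaged only 0.992 after PhenDC3 and 2.79 after DMSO and was not tested. Epithelial markers had 2 of 5 genes in the table, with sums of 74.8 to 83.4 after PhenDC3 and 59.3 to 72.4 after DMSO. CLDN4 averaged 68.5 after PhenDC3 and 66.8 after DMSO, and ELF3 averaged 10.6 and 0.259. EPCAM, CDH1 and KRT19 were not among the rows of the table. Leukocyte markers had 1 of 4, with 7.87 to 19.4 after PhenDC3 and 4.64 to 7.78 after DMSO. Endothelial markers had 2 of 4, with sums of 235 to 317 after PhenDC3 and 227 to 302 after DMSO. Their part in the rRNA results was not tested.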

How the data were processed

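The deposited table holds, for each of 6 libraries of poly(A) RNA, a signal column. Its values are reads per gene after division by a size factor of that library, which the authors did before deposit, as the step between values shows. It also holds the authors' deposited log2 fold change of PhenDC3 over DMSO and the authors' deposited adjusted p-value, which 1332 rows lack. Per the submitters' processing notes, the tools were STAR 2.7, TopHat2 2.0.11, featureCounts, DESeq2 1.18.1, Cufflinks 2.2.1, Cuffdiff and CASAVA, with the build hg19 and no roles given. Annotation, strand setting and treatment of reads with several matches are not stated there. Whole reads were recovered for 100% of values, within a relative tolerance of 1e-06.

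Limma 3.58.1 (R 4.3.3) was run on log2(value + 1) with a variance trend, for 16482 genes with a mean of 5 or more, adjusting by Benjamini-Hochberg with a call at 0.05. The design had foreseen edgeR for raw counts, and limma for normalized values such as these. Changes relative to RNR2 used the log2 ratio in each library, with the same fit. Size factors hide a shift shared by all genes. edgeR 4.0.16 and DESeq2 1.42.0 on recovered reads, other scalings, pseudocounts, minimum levels, a replicate block and leaving out each library were alternatives.

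GENCODE release 29 on GRCh38 gave gene types, lengths and transcript sequences for 22123 of the 22925 rows, matched by identifier. The files' build is hg19, so no coordinates are printed. Copies were aligned locally to the 16S rRNA (match 1, mismatch -1, gap opening -2, extension -1).

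The text names all members, the tRNA genes beside the rRNAs, every tested rRNA copy, the 6 other copies with the highest mean, the 5 highest and 5 lowest called factors, and the 5 closest genes by pattern. POLRMT, TFAM, ND1, CYTB, MT-TE, RN7SK, RMRP, TERC, RNA5SP284 and the further mitochondrial genes were named after their values were seen. The members and lists were chosen with earlier results of these data known. Listed names FASTKD4, MRM1 and RCC1L had no matching row, and GTPBP5 is another name of MTG2. Intervals of pooled read ratios cover counting error only, since reads without molecular identifiers are not independent molecules, and the limma intervals come from the spread between libraries.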

Additional observations from a re-analysis of the deposited data

How the results depend on the processing

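RNR1, RNR2, MTRNR2L12 and MTRNR2L8 were called higher under all 12 other settings and without each library. Their log2 changes ranged from 5.89 to 6.06, 4.52 to 4.70, 4.74 to 4.92 and 3.24 to 3.74, and without single libraries from 6.00 to 6.09, 4.65 to 4.73, 4.83 to 4.95 and 3.57 to 3.74. Relative to RNR2, RNR1 (1.36 throughout, 1.34 to 1.40 without single libraries) and MTRNR2L8 (-1.45 to -0.95, and -1.16 to -0.92) also kept their calls. MTRNR2L12 relative to RNR2 lost its call with a pseudocount of 10 (0.15, limma adjusted p = 0.0895), with no variance trend (0.21, limma adjusted p = 0.0875) and in DESeq2 (0.22, adjusted p = 0.0957), and ranged from 0.14 to 0.29 without single libraries. MTRNR2L2 relative to RNR2 gained a call with a pseudocount of 10 (-2.60) and without DMSO replicate 3 (-1.10), with a range of -1.10 to -0.54 without single libraries, and was nearer 0 with a pseudocount of 0.5 (-0.43), in DESeq2 (-0.19) and in edgeR (-0.16). MTRNR2L9 relative to RNR2 gained a call with a pseudocount of 10 (-2.76) and with no variance trend (-0.63), and had -0.22 with a pseudocount of 0.5 and the other sign in edgeR (0.31, adjusted p = 0.670) and DESeq2 (0.34, adjusted p = 0.785), with -0.71 to -0.49 without single libraries. A larger pseudocount lowers changes of low rows by construction, and the other causes were not tested. The rRNA share differed by 7.95 points of all reads, 7.93 to 7.96 without single libraries, and by 9.44 reads per 100 reads outside the mitochondrial rows. Genes called numbered 9818, and 7911 to 10454 in other settings, 8937 to 9646 without single libraries, 10155 with the replicate block and 9777 in an alternative chosen after seeing the data that left out mitochondrial rows and their copies. The replicate numbers did not pair the libraries (correlations of 0.00788, 0.0712 and 0.0270), and under the block MTRNR2L12 relative to RNR2 was 0.21 (limma adjusted p = 0.0268). Depth limits MTRNR2L1, MTRNR2L4, MTRNR2L2 and MTRNR2L9, which had 14 reads or fewer in all DMSO libraries together.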
